A study of Mus musculus with 12 samples.

Results

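The first change after tetracycline was given to shut off Sox2 in embryonic stem cells was read by comparing 2 groups of arrays. The later group held the 3 arrays taken 6 h (replicates 1 and 2) and 12 h after tetracycline. It was set against the 3 arrays taken at 0 h (replicates 1 and 2) and 3 h. These are 6 of the 12 arrays of a time course that runs to 96 h, grouped by their time labels. The cells were 2TS22C, a single mouse embryonic stem cell line with an inducible Sox2 knockout, in which tetracycline shuts off the Sox2 supply, and every group was grown with LIF, the cytokine that holds such cells in self-renewal. The 0 h samples had no tetracycline and the 3, 6 and 12 h samples had it for that time, per the titles and the series design, whereas the description field gives the untreated form for all samples. By the titles, no sample without tetracycline was taken after 0 h. Loss of Sox2, tetracycline itself and time in culture therefore cannot be told apart here. On each two-colour Agilent array the sample RNA carried Cy3, and a reference RNA pooled from mouse cell lines carried Cy5, with no dye swap. Whether replicates came from different cultures is not stated in the labels. The p-values therefore rest on the scatter among these arrays, part or all of which may be technical.

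Sox2 is a transcription factor with an HMG box that binds DNA together with Oct3/4 at paired sites near genes of the pluripotent state. Embryonic stem cells that lose it leave that state and turn towards trophectoderm-like cells over days. The files do not pair the 60-base probes with genes. Sox2 itself, the known Sox2 and Oct3/4 targets and the lineage markers were therefore not read out, the identity of the cells was not checked against markers, and all counts are of probes.

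Of the called probes whose 6 and 12 h arrays all lay on one side of the 0 and 3 h arrays, the 2 with the largest rise and the 2 with the largest fall are shown by sequence, because the gene behind each was not named. The first 2 rose and the last 2 fell. Capitals mark TTTATT, the reverse complement of the AATAAA signal for polyadenylation.
Z00042638-1: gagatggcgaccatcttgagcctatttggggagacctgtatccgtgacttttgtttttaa
Z00066762-1: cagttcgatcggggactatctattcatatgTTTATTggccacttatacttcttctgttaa
Z00056127-1: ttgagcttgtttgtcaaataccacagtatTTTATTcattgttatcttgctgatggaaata
Z00007727-1: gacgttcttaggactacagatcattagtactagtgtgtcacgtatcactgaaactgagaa

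On the reported scale, with an offset of 50 added to the signals, the early change consisted of small shifts. Of 41296 probes tested, 142 were higher (0.344%) and 57 lower (0.138%) at 6 to 12 h than at 0 to 3 h, together 0.482%, with limma at a Benjamini-Hochberg adjusted p under 0.05. None changed 2-fold. At least 1.5-fold, 13 rose and 4 fell. The median change on the log2 ratio scale was 0.34 for the risers (0.20 to 0.89) and -0.29 for the fallers (-0.87 to -0.20), with a median SE of 0.05 and 0.04. Over all probes tested the median size of the change was 0.04. The size depends on the background correction: for the same probes the median was 0.41 and -0.47 with an offset of 0, and 0.18 and -0.16 with no background correction. The largest riser, Z00042638-1, read 1.12 with an offset of 0, 1.12 from processed signals and 1.11 from the deposited table, each past 2-fold and without a call.

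How many probes were called depended on the signal and on single arrays. With a normexp offset of 0 in place of 50, with the deposited table and with Cy3 alone, limma called 0 probes, and at an unadjusted p under 0.05 there were 6134, 6168 and 5699 against 6696 with the reported setting. Without either 0 h array 0 were called, without the first 6 h array 7 and without the second 1, while 285 were called without the 3 h array and 255 without the 12 h array. The direction was kept more often than the call: with Cy3 alone 198 of the 199 kept it, and with an offset of 0 all 199 did. The same arrays and signals chose these probes, so this was close to set by the choice and is no further test.

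The count also depended on what was taken as spread. In the fit with 2 groups, movement from 0 to 3 h and from 6 to 12 h counts as spread. A fit that gave each of the 8 times of the full course its own mean called 2109 probes (5.12%), 1068 higher and 1041 lower, among them 188 of the 199. A linear trend over the hours of the 6 arrays called 2145, among them 157 of the 199. Among single steps in the fit of all 8 times, 10 probes were called from 0 to 3 h (0.0240%), 656 at 6 h against 0 h (1.57%) and 602 at 12 h against 6 h (1.44%).

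The arrays lay in the order of time along the first principal component, which held 45.8% of the variance. Its scores were -0.42 and -0.40 for the 0 h arrays, -0.25 for 3 h, 0.14 and 0.20 for the 6 h arrays and 0.74 for 12 h. The array numbers in the sample titles rise in the same order, so array order and time cannot be told apart. The median size of the log2 difference between arrays was 0.05 for both replicate pairs, and 0.07 between 12 h and either 0 h array. Differences above 1.5-fold were held by 0.0172% of probes between the 0 h arrays and 0.0466% between the 6 h arrays, but by 0.802% and 0.787% between 12 h and the 0 h arrays. All 6 arrays had their image analysis on 1 day, and the median net signal was 96.9 to 119.7 units in Cy3 and 229 to 282 in Cy5.

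**Figure D1:**
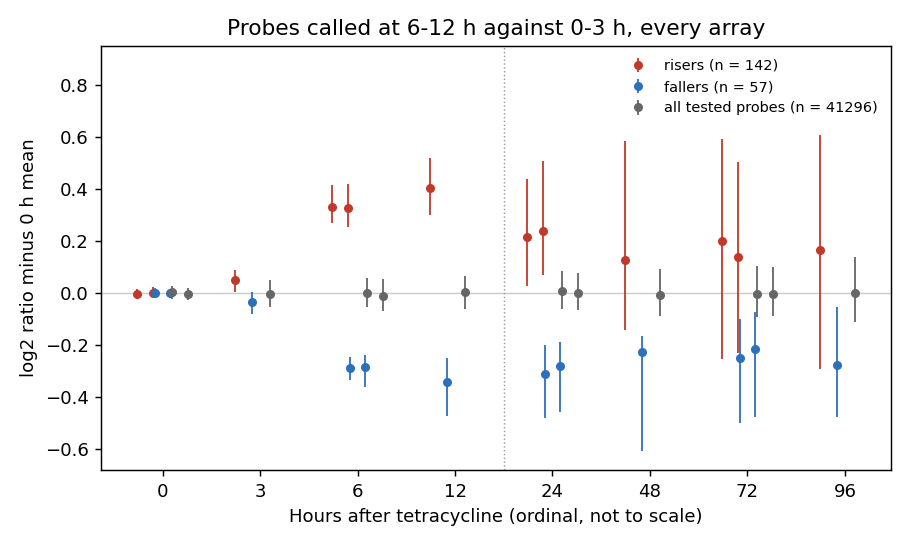
Median log2 ratio of sample over reference minus the mean of the 0 h arrays, for the 142 risers, the 57 fallers and all tested probes on each of the 12 arrays, with bars from the lower to the upper quartile. The dotted line parts the image analysis days; risers and fallers were chosen on the arrays left of it, where they separate from 6 h on.

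The called probes moved little by 3 h and most of the way by 6 h. Against the 0 h mean, the median riser stood at 0.05 on the 3 h array, 0.33 on both 6 h arrays and 0.40 on the 12 h array. The median faller stood at -0.03, then -0.29 and -0.28, then -0.34 on the same arrays. These levels describe the choice of the probes and are no further test. For the next shares, change was taken against the mean of the 0 and 3 h arrays. At 6 h the median riser had reached 77.1% of its 12 h change (quartiles 65.2% and 93.6%) and the median faller 79.0% (68.1% and 97.7%). The 12 h array lay further out than both 6 h arrays in 99 risers of 142 and 37 fallers of 57.

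At 3 h, 62.7% of the risers already lay above both 0 h arrays, against 34.1% of all tested probes with values on those arrays. Of the fallers, 55.4% lay below both, against 38.3% of all. The 3 h array is one of the 3 baseline arrays of the comparison that chose them.

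Separation of the groups was common and is no mark of a called probe. Over the 40999 probes measured on all 6 arrays, 4523 lay wholly above (11.0%) and 4506 wholly below (11.0%). Among called probes 139 risers and 55 fallers were separated, and the other 5 lacked a value on an array because a spot was left out for an outlier flag. A further 30 probes differed at least 1.5-fold without a call, 7 higher and 23 lower. For 27 of them the 12 h value was further out than the 6 h value, and the median had reached 33.7% of its 12 h change at 6 h.

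Probe Z00042638-1 rose the most. Its log2 ratio was 0.59 and 0.58 on the 0 h arrays, 0.88 on the 3 h array, 1.35 and 1.44 on the 6 h arrays and 1.92 on the 12 h array. It was higher at each time than at the time before, and the replicates lay close. The step from 0 to 3 h, 0.29, rests on 1 array and was not called. The mean went from 0.68 ± 0.17 (SD, n = 3) to 1.57 ± 0.31 (SD, n = 3), a change of 0.89 (SE 0.14, 95% interval 0.58 to 1.20, limma adjusted p = 0.0438). Its Cy3 signal over background was dim, with 60.9 and 64.9 units on the 0 h arrays and 216.5 on the 12 h array. Net Cy5 was dim too, between 53.0 and 85.5 units on the 6 arrays. It was 72.4 and 79.5 on the 0 h arrays and 55.7 on the 3 h array.

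Probe Z00066762-1 held level for 3 h and then rose. It read 1.53 and 1.55 untreated, 1.60 after 3 h, 2.15 and 2.27 after 6 h and 2.69 after 12 h, with no overlap between the groups. The change was 0.81 (SE 0.11, 95% interval 0.55 to 1.07, limma adjusted p = 0.0373), from 1.56 ± 0.04 (SD, n = 3) to 2.37 ± 0.28 (SD, n = 3). Net Cy3 was 188.8 and 182.3 units in the untreated samples and 476.6 after 12 h, while Cy5 stayed between 84.0 and 119.7 on the 6 arrays.

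Probe Z00056127-1 was lower at 6 to 12 h. Its step from 0 to 3 h, -0.19, rests on 1 array and was not called. Its log2 ratio was -0.88 and -0.83 untreated, -1.04 after 3 h, -1.50 and -1.54 after 6 h and -1.98 after 12 h, lower at each time than before. The change was -0.75 (SE 0.11, 95% interval -1.01 to -0.49, limma adjusted p = 0.0417), from -0.92 ± 0.11 (SD, n = 3) to -1.67 ± 0.26 (SD, n = 3). A probe with a larger change, -0.87, is not shown because it lacked an array.

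Probe Z00007727-1 shared the smallest adjusted p with 1 riser. It read -3.03 on both 0 h arrays, -3.11 after 3 h, -3.74 and -3.67 after 6 h and -3.88 after 12 h, with its largest step between 3 and 6 h. The change was -0.71 (SE 0.05, 95% interval -0.83 to -0.59, limma adjusted p = 0.0156), from -3.06 ± 0.04 (SD, n = 3) to -3.77 ± 0.11 (SD, n = 3). From 6 to 12 h it differed by -0.17 (limma adjusted p = 0.282), whereas the other three named probes moved on in the same direction by 0.52, 0.48 and -0.46 (limma adjusted p = 0.00127, 0.00940 and 0.0115). Each of the 4 cleared the background in Cy3 throughout, on 12 of 12 arrays. They kept their direction under all 19 alternatives tried, which use the arrays that chose them, so this is no further test. The calls of the first 3 were lost under 10 of the alternatives and that of Z00007727-1 under 6. Over the 19, the limma adjusted p of Z00042638-1 ran from 8.56e-06 to 0.313. Their size moved by more than their SE. Over the alternatives Z00042638-1 ran from 0.36 to 1.12, Z00066762-1 from 0.48 to 0.92, Z00056127-1 from -0.93 to -0.38 and Z00007727-1 from -0.87 to -0.39.

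**Figure D2:**
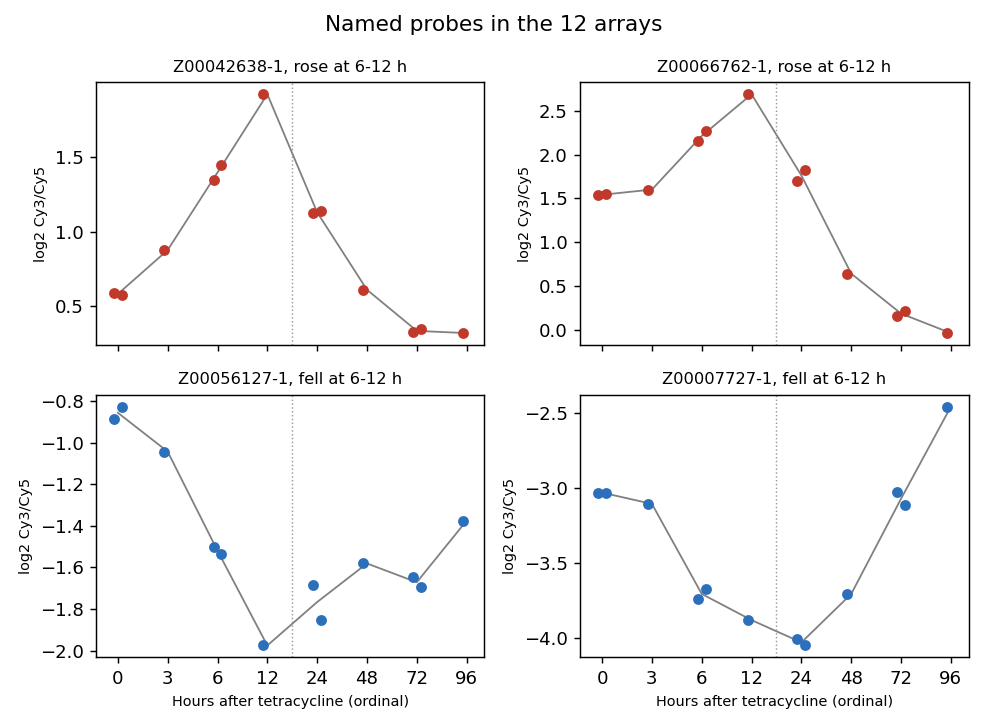
Log2 ratio of Cy3 sample over Cy5 reference for the 4 named probes on each of the 12 arrays, one point per array, with a line through the mean at each time. The risers peak at 12 h and the fallers are at or near their lowest at 12 to 24 h; the dotted line parts the image analysis days.

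Because a ratio can move through either dye, the channels were set apart. In Cy3 alone, the sample, all 142 risers were higher, with a median of 0.35, and 56 of the 57 fallers were lower, with a median of -0.24. Cy3 is part of the ratio that chose these probes, so its direction was close to set by the choice. In Cy5 alone, the common reference, the medians were 0.04 and 0.07. Cy5 moved more than Cy3 in 5 risers and 14 fallers, so for those probes the reference channel moved further than the sample. For the named probes Cy3 alone gave 0.86, 0.74, -0.82 and -0.56, and Cy5 alone 0.11, 0.03, -0.10 and 0.07. Fits to single channels called no probe in either: limma called 0 of 41304 with Cy5 alone (0%) and 0 of 41297 with Cy3 alone. At an unadjusted p under 0.05, Cy5 alone had 3243 probes and Cy3 alone 5699, with the share for Cy5 at 7.85% against 16.2% for the ratios. No called probe was saturated in either channel on the 6 arrays.

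Position on the array moved with the result. With the columns of the array cut into 4 bands, from the first to the last, the median change of all tested probes was 0.03, 0.01, -0.01 and -0.03. The risers numbered 54, 40, 29 and 19 in these bands and the fallers 9, 8, 14 and 26. With the median of each of 200 blocks of the surface taken off each array, an alternative added after seeing the data, 226 probes were called, 171 higher and 55 lower. Of the reported calls, 109 risers and 33 fallers were called again. The risers then numbered 33, 36, 48 and 54 over the bands and the fallers 20, 16, 14 and 5, so the order over the columns turned round and did not vanish.

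**Figure D3:**
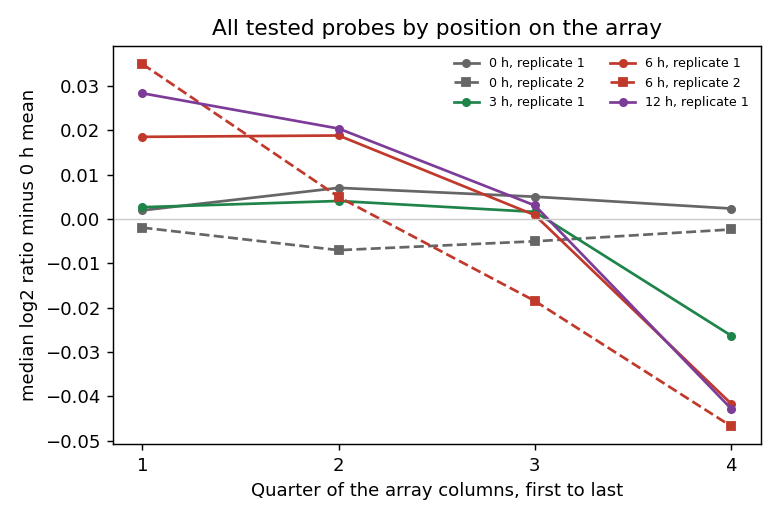
Median log2 ratio minus the 0 h mean, over all tested probes in each of 4 bands of the array's columns, for the 6 arrays of 0 to 12 h, one line per array. The 6 h and 12 h arrays run from 0.02 to 0.03 down to -0.04 or -0.05, the 0 h arrays are flat, and the 3 h array drops in the last band.

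Many risers already read higher in these cells than in the reference. This describes the baseline arrays that also entered the choice, with no test. Their median log2 ratio at 0 to 3 h was 0.58, against 0.14 for fallers and -0.02 for all tested probes. More than 2-fold above the reference were 46 risers (32.4%) and 10 fallers (17.5%), against 9.36% of all. More than 2-fold below it were 12 risers (8.45%) and 11 fallers (19.3%), against 4.73% of all. The median net Cy3 at 0 h was 202 units for risers, 141 for fallers and 121 for all, so the risers were also brighter, and the part of brightness was not tested.

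By sequence, the risers had the same median GC content as all probes, 43.3%, and the fallers 38.3%. The letters AATAAA stood in 13.4% of risers and 8.77% of fallers, against 6.66% of all tested probes, and TTTATT in 5.63% and 3.51% against 3.42%. ATTTA, the core letters of AU-rich elements that are known to shorten the life of an mRNA, stood in 11.3% of risers and 5.26% of fallers against 7.18% of all. TAAAT, its reverse complement, stood in 10.6%, 7.02% and 8.13%. These shares rest on 142 and 57 probes and describe the letters of the probes, not of whole transcripts.

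Probes that overlap in sequence were set side by side, though no rate was taken for probes that do not overlap. Whether overlapping probes read the same RNA was therefore not tested. Of 964 pairs sharing at least 25 bases, 70.9% changed in the same direction, with a median difference of 0.04. Of the called probes, 10 had such partners, and all 18 partner comparisons had the same sign, though 11 of them come from 3 called probes of the low-reading groups described next. In 2 pairs both probes were called, and the 18 comparisons count each of these pairs from both sides. Some of the 964 pairs lie in groups with nearly the same change throughout, such as 3 probes between -0.0171 and -0.0169.

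The groups of overlapping probes furthest from 0 were chosen after their values were seen and are described without a test. They held 15 probes, of which all 15 read lower and 3 were called, with a median change of -0.38 (-0.46 to -0.32). One run shared by 7 of the 9 probes in the larger group is shown as a stretch that most of that group holds.
shared run: attttccatgattttcagttttcttgccat
Against the 0 h mean, their median was -0.30 after 3 h, -0.41 and -0.49 after 6 h and -0.53 after 12 h. Both dyes moved. In Cy3 alone all 15 were lower, by a median of -0.19, and in Cy5 alone all 15 were higher, by 0.14, although the reference RNA was the same. The median log2 of Cy3 alone was 11.14 and 11.10 untreated and 10.83 after 3 h. It was 10.90 and 10.92 after 6 h and 10.86 after 12 h, so it fell no further after 3 h. Cy5 alone was 15.04 after 3 h, 15.22 and 15.30 after 6 h and 15.34 after 12 h. The further fall of the ratio after 3 h thus went with a rise in the reference channel. On these bright reference spots the median net Cy5 was 32720 and 31521 units untreated and 37991 after 12 h, while net Cy3 was 1954 and 1834, then 1708.

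A probe carrying part of the Mir295 hairpin could be named. Mir295 lies in a cluster of microRNAs abundant in embryonic stem cells, and RefSeq places it at chr7:3220773-3220841 on the plus strand of GRCm38.p6. Of 42006 probe names, 7 matched a hairpin over at least 25 bases. None was called, against 0.482% of all tested probes, so nothing is read from a count over so few. The Mir295 probe, the only match shown, had the largest change of the 7. The others ran from -0.09 (Mir8120) to 0.05 (Mir682). Capitals mark the 44 bases shared with the hairpin in the probe, and bases 2 to 8, the seed, in the mature microRNA.
probe Z00027484-1: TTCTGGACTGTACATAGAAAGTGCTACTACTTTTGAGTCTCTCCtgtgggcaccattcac
mmu-miR-295-3p: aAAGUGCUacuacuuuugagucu
Its log2 ratio was 3.24 and 3.41 untreated, 3.53 after 3 h, 3.67 and 3.62 after 6 h and 3.63 after 12 h. The 3 later arrays all lay above the 3 earlier ones, as did 11.0% of probes. The change was 0.25 (SE 0.07, 95% interval 0.10 to 0.40, limma adjusted p = 0.113) and did not pass the test. With Cy3 alone it was 0.18. Whether the probe reads the primary transcript or the mature form was not tested.

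**Figure D4:**
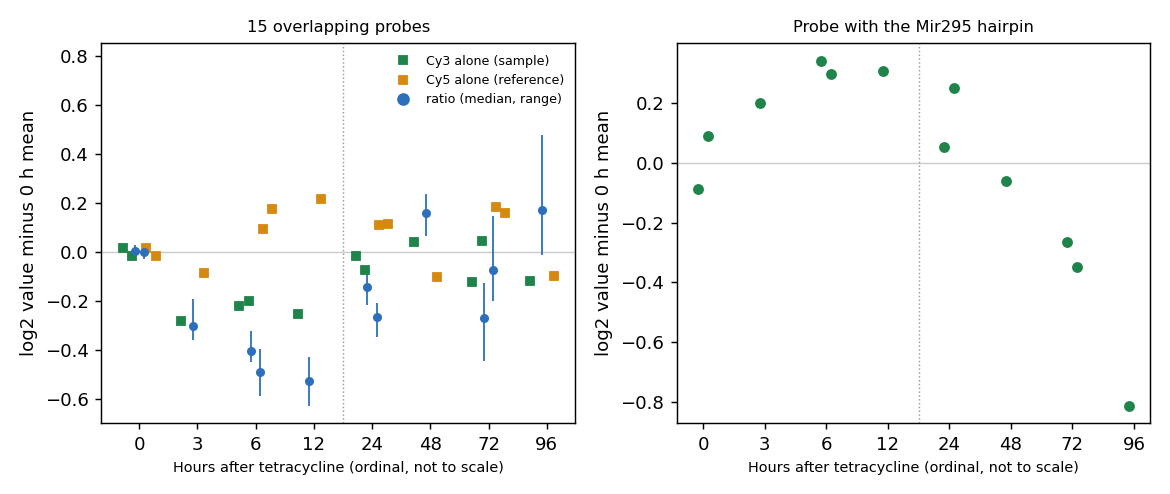
Left, the 15 probes of 2 groups that overlap within each group: median and range of the log2 ratio minus the 0 h mean on each of the 12 arrays. The medians of Cy3 alone and Cy5 alone stand beside it and part in opposite directions at 6 and 12 h. Right, the probe with the Mir295 hairpin, log2 ratio minus the 0 h mean, one point per array, highest at 6 and 12 h and lowest at 96 h.

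What the called probes did later was read on the other 6 arrays, which played no part in choosing them. The 3 arrays of 72 and 96 h were set against the 3 of 24 and 48 h. There 2698 of 41443 probes were higher (6.51%) and 2038 lower (4.92%), again by limma and the same threshold. Of the 142 risers, 24 were higher later (16.9%), 29 were lower (20.4%) and 89 were not called. Of the 57 fallers, 11 were higher later (19.3%), 2 were lower (3.51%) and 44 were not called. Late windows are compared here with each other and not with 0 h. A probe without a later call may have kept its early shift or lost it by 24 h. These counts hung on single arrays: without either 24 h array all 4 were 0, as was the count over all probes. Without the 48 h array 54 risers and 10 fallers were lower, while the share of all probes called lower went to 9.99%.

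The courses of the called subsets are given as a description, since the later call chose them and so set their direction from 24-48 h to 72-96 h. The 89 risers with no later call had medians against 0 h of 0.21 and 0.24 (24 h), 0.09 (48 h), 0.16 and 0.12 (72 h) and 0.17 (96 h). The 29 called lower later had medians against 0 h of 0.34 and 0.33 on the 6 h arrays and 0.45 on the 12 h array. On the arrays of 24 h this was 0.17 and 0.22, then -0.01 (48 h), -0.29 and -0.24 (72 h) and -0.30 (96 h), so the median ended below its start. The 24 called higher later had 0.32 and 0.31 (6 h), 0.38 (12 h) and 0.33 and 0.31 (24 h), a plateau. They then stood at 0.52 (48 h), 1.09 and 0.96 (72 h) and 1.19 (96 h). The 11 fallers called higher later stood at -0.47 (12 h), -0.39 and -0.49 (24 h), -0.35 (48 h), -0.03 and 0.00 (72 h) and 0.12 (96 h). The images of 24 h and later were analysed on another day than those of 0 h, so in these levels against 0 h the day and the time cannot be told apart.

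**Figure D5:**
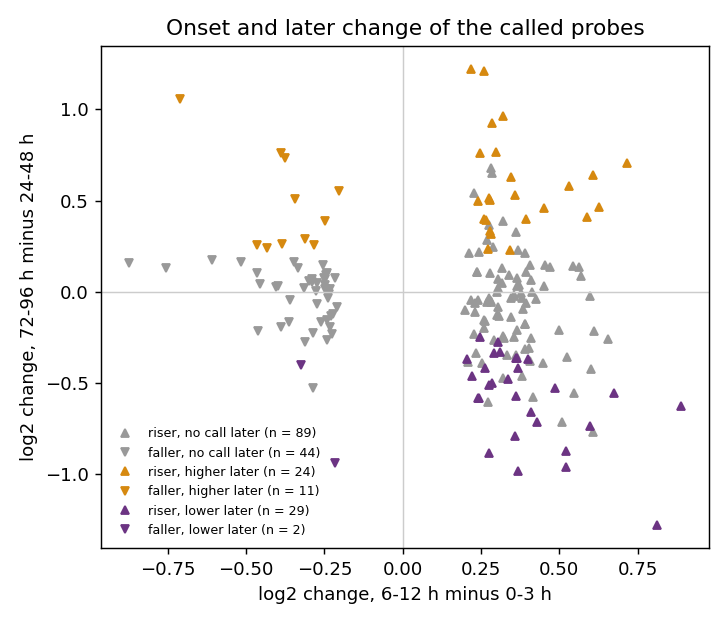
Each called probe by its log2 change from 0-3 h to 6-12 h (horizontal) and from 24-48 h to 72-96 h (vertical), with upward triangles for risers, downward ones for fallers and colours for the later call. The colour repeats the test on the vertical axis; 89 risers and 44 fallers have no later call, and the later change uses other arrays than the first.

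Both named risers turned down again. Z00042638-1 read 1.12 and 1.14 (24 h), 0.61 (48 h), 0.33 and 0.35 (72 h) and 0.32 (96 h), a later change of -0.62 (limma adjusted p = 0.0366). Z00066762-1 read 1.70 and 1.82 (24 h), 0.64 (48 h), 0.15 and 0.21 (72 h) and -0.04 (96 h), a later change of -1.28 (limma adjusted p = 0.0424). The fallers parted. Z00007727-1 was at -4.01 and -4.05 (24 h) and came back to -3.03 and -3.12 (72 h) and -2.46 (96 h), a later change of 1.06 (limma adjusted p = 0.0215). Z00056127-1 stayed between -1.85 and -1.37 from 24 to 96 h, with a later change of 0.13 (limma adjusted p = 0.490). The later minus the first change was called lower in 80 of the 142 risers (56.3%) and higher in 33 of the 57 fallers (57.9%), the named ones among them, against 6.40% and 7.45% of all probes. The first change chose these probes and is subtracted in that test, so nothing is read from these counts.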

How the data were processed

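RNA of 2TS22C cells was measured on 12 arrays, 1 per sample, and 6 enter the main comparison. Per the file headers, the deposited spot intensity values came from Agilent Feature Extraction 7.5.1, and the deposited processed signals are intensity values corrected for background and dye by that program. The deposited series table holds log10 values, divided here to the log2 scale. Mean signals were corrected with normexp (offset 50), log2 ratios of Cy3 over Cy5 were normalized by loess within arrays, and probes well above background in Cy3 on at least 2 of the 6 arrays were kept (41305, with 701 removed), in limma 3.58.1 under R 4.3.3. The offset shrinks changes of dim probes. Spots with outlier flags were left out; 9 kept probes could not be fitted. Probes of 2 groups of 3 arrays were compared with lmFit and eBayes, which leaves 4 residual degrees of freedom. Times with 1 array were assumed to vary like the others. The number of arrays limits the precision.

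Named probes were the 2 risers and 2 fallers with the largest called change whose groups did not overlap. The comparison, probes and lists were chosen with earlier results of these data known. The planned gene lists, cell type markers and readout of Sox2 and Pou5f1 were not run, since the files do not pair probes with genes. Channels alone were normalized by quantiles between arrays. Alternatives changed the background correction, normalization, signal, filter, threshold, arrays and model. On simulated data of 41296 probes with 200 changed, the main comparison recovered 30% at a log2 change of 0.25, 92% at 0.5 and 98.5% at 1. In the arrays themselves, 47 tested probes changed at least 1.5-fold, and 17 of them were called. The simulated shares therefore cannot be carried over to the arrays. Hairpins and mature microRNAs came from RefSeq (GRCm38.p6). Figures were drawn with matplotlib 3.10.9.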

Additional observations from a re-analysis of the deposited data

Results flagged for a closer look

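For each of the 4 named probes the later change (72 to 96 h against 24 to 48 h) differed from the first change (6 to 12 h against 0 to 3 h), by a test of the difference itself in limma over 4 windows of 3 arrays, with Benjamini-Hochberg adjustment. Of 41745 probes, 7.45% were called higher and 6.40% lower in that test. The later change minus the first was -1.51 for Z00042638-1 (adjusted p = 0.00275) and -2.09 for Z00066762-1 (adjusted p = 0.00434), and it was 0.89 for Z00056127-1 (adjusted p = 0.00944) and 1.77 for Z00007727-1 (adjusted p = 0.00101). The probes were chosen for a large first change, which is subtracted in this test, so a difference was to be had from the choice alone and the p-values support nothing. Of all risers, chosen the same way, 56.3% were called lower, and of all fallers 57.9% were called higher. For Z00056127-1 the first change of -0.75 makes up most of the difference, and its later change was 0.13 (adjusted p = 0.490). The windows were analysed on 2 days, and each change lies within 1 of them.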

How the results depend on the processing

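The count of 199 probes called at 6 to 12 h was not stable. It became 0 with a normexp offset of 0, with the deposited table, with Cy3 alone, with Cy5 alone, at an adjusted p under 0.01 and at 2-fold, 1 with processed signals, 4 with no background correction, 17 at 1.5-fold and 86 with median centring, and rose to 665 with array weights, 812 at 6 h against 0 h only, 2109 with 8 time groups and 2145 with a linear trend. Leaving out 1 array gave 0 (either 0 h array) to 285 (the 3 h array), so the count depended on which array was left out. Rises were 71.4% of the calls, 58.9% with array weights, 60.8% at 6 h against 0 h only and 50.6% with 8 time groups. No named probe was reversed, but the alternatives use the arrays that chose these probes. A stricter threshold or a fold limit can only lower the count. For the other alternatives, leaving out an array among them, the cause was not tested.

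The step from 0 to 3 h called 10 probes, and 4, 4 and 2 with an offset of 0, processed signals and Cy3 alone; the 6 h step called 656, and 62, 1 and 0; the step from 6 to 12 h called 602, and 93, 94 and 40. The later course called 4736 probes, 3133 with processed signals, 2379 with Cy3 alone, 12832 with 8 time groups and 0 to 8862 without 1 array (0 without either 24 h array, 740 and 1336 without the 72 h arrays, 2040 without the 96 h array). The share of all probes called moved with the counts below: lower 4.92%, 2.87% with Cy3 alone, 14.3% with 8 time groups and 0% to 9.99% without 1 array; higher 6.51%, 2.87%, 16.8% and 0% to 11.4%. Of risers, 29 were lower later, 12 with Cy3 alone, 62 with 8 time groups and 0 to 54 without 1 array; 24 were higher later, 14 with an offset of 0, 12 with processed signals, 10 with Cy3 alone, 37 with 8 time groups and 0 to 30 without 1 array. Of fallers, 11 were higher later, 4 with Cy3 alone and 0 to 11 without 1 array; 2 were lower, 1 with processed signals, 14 with 8 time groups and 0 to 10 without 1 array.

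With the replicate number as a block the onset comparison called 1 probe. Deviations of arrays sharing a number correlated at 0.04 for 0 and 6 h and 0.16 for 24 and 72 h, and the labels tie no number to a culture, so they were not taken as pairs. The alternatives planned for gene lists were not run, since probes were not paired with genes.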
